A study of Saccharomyces cerevisiae with 22 samples.

Results

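The small subunit processome is the assembly that forms on the nascent ribosomal RNA precursor in the nucleolus, and the genes described here are 35 yeast genes that encode its protein subunits and factors bound to it. They were taken by systematic name from a list of known members, which used no measured value, and all 35 were found in each of the 22 count tables, out of 6696 names listed there and 6005 protein-coding genes matched to the annotation. The libraries came from budding yeast grown in YPD. The labels give the X2180-1a background for all 22 libraries, while the study's strain list puts the mutants in X2180-1B. Cells were grown either without drug (growing) or with 0.2 µM rapamycin, an inhibitor of the growth-promoting kinase complex TORC1 that starts autophagy. In the vacuole experiment RNA was sequenced from total lysates and from vacuoles isolated by flotation, in cells labelled rny1Δ::natNT2, for a deletion of the gene of the vacuolar RNase Rny1, and in cells labelled rny1Δ::natNT2, atg2Δ::kanMX6, for that deletion and a deletion of ATG2, whose protein is needed to form autophagosomes. Each strain and fraction has 1 growing library and 2 libraries after 3 h of rapamycin, and all 12 libraries carry the rny1Δ label, although RNY1 counts were found in each of them. In wild-type (WT) cells, RNA-Seq and ribosome footprints were taken from the same lysates, with 2 growing libraries and 1 library at each of 1, 2 and 3 h of rapamycin for each assay.

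A ribosome begins as a long precursor RNA made by RNA polymerase I. As the precursor emerges, the UtpA and UtpB complexes bind its leading spacer, the U3 small nucleolar RNA base-pairs with it and holds the small subunit domains apart, and later factors cut and release the pre-small subunit. The mRNAs of these factors belong to the ribosome biogenesis regulon, which yeast cells are known to shut down together when TORC1 is inhibited.

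The members fall into 6 groups by role. UtpA, the complex that starts assembly on the leading spacer, is represented by UTP4 (YDR324C), UTP5 (YDR398W), UTP8 (YGR128C), UTP9 (YHR196W), UTP10 (YJL109C), UTP15 (YMR093W) and NAN1 (YPL126W). UtpB, the complex that joins next, comprises PWP2 (YCR057C), UTP6 (YDR449C), DIP2 (YLR129W), UTP13 (YLR222C), UTP18 (YJL069C) and UTP21 (YLR409C). The proteins of the U3 particle are the RNA methyltransferase fibrillarin (NOP1, YDL014W), the scaffold proteins NOP56 (YLR197W) and NOP58 (YOR310C), the RNA-binding protein SNU13 (YEL026W), which is also part of the spliceosome, and the U3-specific protein RRP9 (YPR137W). MPP10 (YJR002W), IMP3 (YHR148W) and IMP4 (YNL075W) form the complex that helps U3 pair with the precursor. The GTPase BMS1 (YPL217C) with its partner RCL1 (YOL010W), and the helicase ECM16 (Dhr1, YMR128W) with its activator UTP14 (YML093W), drive late remodelling. The other assembly factors are UTP7 (YER082C), UTP11 (YKL099C), UTP20 (YBL004W), UTP22 (YGR090W), UTP23 (YOR004W), UTP30 (YKR060W), RRP5 (YMR229C), which also serves the large subunit, SOF1 (YLL011W), KRR1 (YCL059C) and ENP1 (YBR247C). None of the 35 overlaps another gene on either strand by the spans of the R64 annotation. The members' spans are those of their coding sequences, so reads from untranslated regions of neighbouring genes were not checked.

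The libraries of the vacuole experiment held 9156333 to 22097523 counts on genes, apart from the rny1Δ atg2Δ vacuole library of rapamycin replicate 2, which held 535462 and gave the members between 0 and 215 counts each. WT RNA-Seq libraries held 10361721 to 14917164 counts and WT footprint libraries 2657480 to 20413301. ATG2 had 851 to 1448 counts in the 6 libraries labelled rny1Δ and 0 to 79 in the 6 labelled rny1Δ atg2Δ. RNY1 itself had 9 to 439 counts in all 12 libraries of the vacuole experiment, beside 66 to 1119 in the 5 WT RNA-Seq libraries, so its counts do not show the deletion the labels give. The strain names below are those of the labels. Mitochondrially encoded genes took 0.839% and 0.948% of counts in the growing total lysates against 0.0178% and 0.0170% in the growing vacuoles, and 3.98% to 6.07% against 0.307% to 1.28% after rapamycin. The study describes the replicates of its sequencing experiments as independent biological replicates. Every level is a share of its library, so the amount of RNA per cell or per vacuole is not measured.

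In growing WT cells the members spanned a wide range of mRNA levels. On a per-length scale (TPM, here the share of counts per codon over all protein-coding genes, on the usual scale), the mean of the 2 growing RNA-Seq libraries was highest for SNU13 at 685, followed by NOP56 at 304, NOP1 at 241 and NOP58 at 130, all of them U3 particle proteins. The lowest were UTP14 at 11.8 and UTP6 at 16.5. The members together took 0.430% and 0.437% of protein-coding counts in the 2 growing libraries. After rapamycin the share was 0.0478% at 1 h, 0.122% at 2 h and 0.191% at 3 h.

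Rapamycin lowered the mRNAs of all 35 members in WT cells within 1 h, and the levels then rose again without reaching those of growing cells by 3 h. Values are given as CPM, the usual depth-scaled counts after TMM scaling, a level within a library that is not corrected for length. NOP1 (chromosome IV, 427364 to 428347) had 350 and 328 CPM in the growing libraries, 6.99 at 1 h, 21.2 at 2 h and 36.6 at 3 h. RRP5 (chromosome XIII, 725934 to 731123) had 658 and 603 growing, then 18.8, 87.1 and 172. Both mRNAs were lowest at 1 h, and RRP5 recovered further than NOP1, to 27.3% of its growing mean against 10.8%.

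The same order was seen in the large scaffold proteins. UTP20 (chromosome II, 227636 to 235117), which encodes a very large scaffold protein, went from 600 and 550 CPM to 58.0, 140 and 206. UTP10 (chromosome X, 212000 to 217309), a large subunit of UtpA, went from 580 and 536 to 42.6, 105 and 141. PWP2, a core subunit of UtpB, went from 211 and 204 to 7.67, 24.7 and 41.0. These 3 mRNAs ended between 19.7% and 35.9% of their growing means at 3 h.

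Among the late factors and the Mpp10 complex, RCL1 had 58.7 and 51.3 CPM in growing cells and 3.29, 7.78 and 13.4 after 1, 2 and 3 h. MPP10 (chromosome X, 438865 to 440646) had 65.5 and 54.0, then 11.1, 20.4 and 33.8. SNU13 (chromosome V, 101943 to 102323) had 373 and 338, then 13.8, 28.5 and 43.3. MPP10 was the member nearest its growing level at 3 h, at 56.5% of the mean, while SNU13 stood at 12.2%.

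Genes with roles at the edge of the processome showed the same course. ENP1, which stays on the particle into the cytoplasm, had 61.4 and 61.1 CPM in growing cells and 6.91, 11.8 and 19.6 after rapamycin. UTP22, which is also part of a complex that links processing to ribosomal protein gene transcription, had 251 and 245, then 33.5, 46.5 and 58.6. UTP30 had 19.1 and 21.3, then 4.55, 7.22 and 9.27. In all 35 members the level was below both growing libraries at every time and rose from 1 h to 2 h to 3 h, an order that 13.0% of the 5927 genes tested followed.

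**Figure D1:**
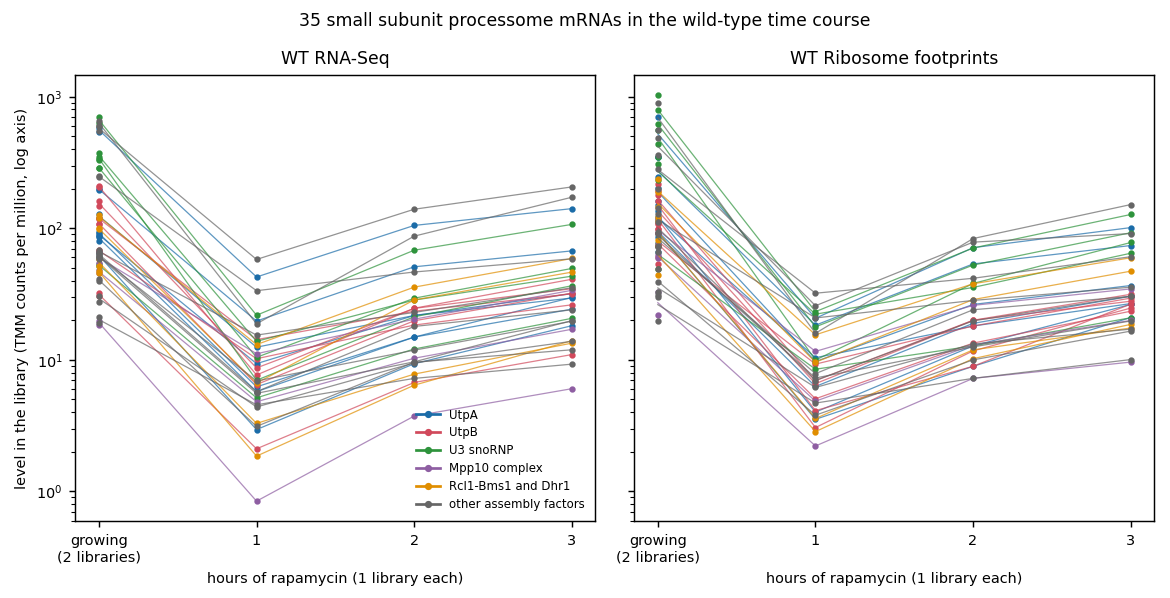
Level of each of the 35 members (TMM-scaled CPM, log axis) in WT cells, by hours of rapamycin, in RNA-Seq (left) and ribosome footprints (right). Points are libraries, lines join the mean of the 2 growing libraries with the 1 library at each time, and colours are the 6 groups by role. All 35 lines in each panel are lowest at 1 h and rise to 3 h.

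Against the growing libraries, 35 of 35 members fell at 1 h by at least 2-fold at an adjusted p under 0.01 (edgeR quasi-likelihood test, Benjamini-Hochberg adjustment over all genes tested), where 16.3% of all genes tested fell. The members' median log2 change was -3.69, with NOP1 lowest at -5.60 ± 0.17 (standard error, adjusted p = 3.4e-14) and UTP7 highest at -2.11 ± 0.15 (adjusted p = 9.6e-10). The median of all genes tested was 0.01. The median level of a member at 1 h was 7.73% of its growing mean.

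At 2 h, 35 of 35 members were still called lower, against 14.5% of all genes, with a median log2 change of -2.37 and extremes of -4.00 (NOP1) and -1.49 (UTP30). At 3 h, 33 of 35 were called lower, against 15.9%, with a median of -1.66. The exceptions were MPP10 (-0.82 ± 0.14) and UTP7 (-0.92 ± 0.13), which missed the fold threshold. Between 1 h and 3 h, 34 of 35 members rose, where 5.99% of all genes did, by a median log2 change of 1.96. RRP5 rose most, by 3.20 ± 0.16 (adjusted p = 1.2e-09), and UTP22 least, by a log2 value of 0.81 ± 0.14, which missed the fold threshold. Each time point is 1 library and the spread rests on the 2 growing libraries. When the more variable footprint libraries shared 1 fit with RNA-Seq, 29 members were called lower at 1 h, 4 at 2 h and 0 at 3 h, against 7.28%, 3.49% and 0% of all genes. In that fit 0 members and 0% of all genes were called higher at 3 h than at 1 h, and the members' medians were -3.53, -2.28, -1.57 and 1.89.

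The groups by role differed in size of change. The 5 U3 particle mRNAs had a median log2 change of -4.78 at 1 h and -2.64 at 3 h. The 10 other assembly factors had -3.23 and -1.55, and the 3 Mpp10 complex mRNAs had -3.28 and -1.46. UtpA had -3.71 and -1.77, and UtpB had -3.97 and -1.83. The 4 mRNAs of the Rcl1-Bms1 and Dhr1 group had -3.98 at 1 h and, at 3 h, the smallest fall of the 6 groups, -1.41. Across the 35 members, the log2 level per codon in the growing rny1Δ total library, a library outside the WT set, had a Spearman rho of -0.31 with the WT change at 1 h and -0.52 with that at 3 h (Pearson's r -0.52 and -0.68). These are descriptions across genes, which are not independent replicates, and the 3 WT changes share their growing libraries. Differences between the groups by role were not tested.

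The ribosome footprints of the members followed the mRNAs. Together the members took 0.687% and 0.460% of footprint counts in the 2 growing libraries, then 0.0405% at 1 h, 0.111% at 2 h and 0.172% at 3 h. NOP1 had 624 and 350 footprint CPM in growing cells, then 9.96, 38.1 and 78.0. PWP2 had 192 and 108, then 4.11, 8.93 and 26.5. In all 35 members the footprint level was below both growing libraries at every time and rose from 1 h to 3 h, which 13.8% of the 5625 genes tested did.

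The 2 growing footprint libraries differed from each other in these genes. The members' log2 ratio of replicate 2 to replicate 1 had a median of -0.77 and was below 0 in 35 of 35, while the median over all genes was at 0. In growing RNA-Seq the same median was -0.08. The spread between the growing footprint libraries was also large over all genes, with a biological coefficient of variation of 0.323 against 0.0705 in RNA-Seq.

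At 1 h, 32 of 35 members were called lower in footprints, against 5.92% of all genes tested, with a median log2 change of -3.91. The lowest was NOP1 at -5.61 ± 0.73 (adjusted p = 0.0039). UTP7 (-2.48), UTP22 (-3.13) and UTP30 (-2.49) missed the adjusted p, which was 0.015, 0.012 and 0.015. At 2 h and 3 h no gene passed, 0% of those tested, members included. There the members' medians were -2.63 and -2.07. At an unadjusted p under 0.05, 35 of 35 members were lower at each of these times, with 937 and 959 of all genes in either direction. DESeq2 called 24 and 10 members lower, beside 5.46% and 3.52% of all genes. PWP2 was lowest at 2 h (-4.07 ± 0.60, adjusted p = 0.023) and NOP58 at 3 h (-2.74 ± 0.63, adjusted p = 0.10). UTP11 was highest at both times, at -1.42 ± 0.42 and -1.04 ± 0.40. With only growing replicate 1 as control, the medians at 1, 2 and 3 h were -4.26, -3.00 and -2.29, and with only replicate 2 they were -3.49, -2.19 and -1.62, values with no test since no residual degrees of freedom remain in that fit.

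Ribosome association is the footprint level of a gene relative to its mRNA level, and its change with time was tested as a term that lets footprints move apart from mRNA, fitted over all 10 WT libraries. In growing cells the members' log2 ratio of footprints to mRNA per codon had a median of 0.82 in replicate 1, where 32 of 35 lay above the median of all genes (0.20), and 0.36 in replicate 2, where 18 of 35 did (0.27). UTP6 had the highest ratio in both replicates, at 1.89 and 1.11. The lowest differed: SNU13 at -0.01 in replicate 1 and UTP20 at -0.65 in replicate 2.

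No gene was called for a change in ribosome association at 1, 2 or 3 h, 0% at each time, and 0 of 35 members. At an unadjusted p under 0.05 there were 1, 0 and 0 members and 250, 252 and 570 of all genes, and DESeq2 called 0 members. The members' medians were -0.54, -0.36 and -0.34, beside -0.14, -0.12 and -0.05 for all genes tested. With size-factor scaling the all-gene median at 1 h was -0.04. That scaling moves the members as well, so this value is not to be set against their TMM median of -0.54. SNU13 was the highest member at each time, at 0.90 ± 0.39, 0.62 ± 0.39 and 0.86 ± 0.39, and the lowest were UTP13 at 1 h (-2.38 ± 0.69, adjusted p = 0.92), PWP2 at 2 h (-1.09 ± 0.57) and UTP7 at 3 h (-0.90 ± 0.45).

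These medians turned on which growing footprint library served as control. Without ribosome footprint growing replicate 1 the members' medians were 0.01, 0.11 and 0.11, and without replicate 2 they were -0.86, -0.69 and -0.68.

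Total lysates of the vacuole experiment showed the same fall of the members after 3 h of rapamycin in both strains. The members took 0.781% of protein-coding counts in the growing rny1Δ lysate and 0.157% and 0.137% after rapamycin. In rny1Δ atg2Δ they took 0.862%, then 0.124% and 0.151%. SNU13 had 266 CPM in the growing rny1Δ lysate and 12.9 and 11.6 after rapamycin, and 292, then 11.9 and 13.7, in rny1Δ atg2Δ. MPP10 had 88.4, then 52.0 and 41.7, and in the double mutant 90.2, then 41.8 and 45.4. The fall in SNU13 was far larger than the gap between the rapamycin replicates in each strain, and MPP10 was again the member that moved least.

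In rny1Δ, 34 of 35 members fell, against 22.9% of the 5753 genes tested, with a median log2 change of -2.52. SNU13 was lowest at -4.44 ± 0.13 (adjusted p = 5.9e-15), NOP1 stood at -4.13 ± 0.16, and MPP10, the exception, stood at -0.91 ± 0.14. In rny1Δ atg2Δ, 35 of 35 fell, against 23.9%, with a median of -2.58, SNU13 at -4.52 ± 0.13 and MPP10 at -1.05 ± 0.13. Each growing group is 1 library and its spread is taken from the rapamycin replicates.

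After rapamycin, the total lysates of the strains did not differ in any member by the thresholds used: 0 of 35 were called, where 0.539% of all genes were. The members' log2 values, rny1Δ atg2Δ minus rny1Δ, had a median of -0.11 and ran from -0.42 ± 0.14 (UTP21, adjusted p = 0.066) to 0.45 ± 0.24 (UTP30, adjusted p = 0.26). At an unadjusted p under 0.05 there were 4 of 35 members, beside 1407 of 5753 genes tested. Leaving out 1 rapamycin lysate in turn moved the median between -0.26 (without rny1Δ atg2Δ total replicate 2) and 0.01 (without total replicate 1 of either strain).

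**Figure D2:**
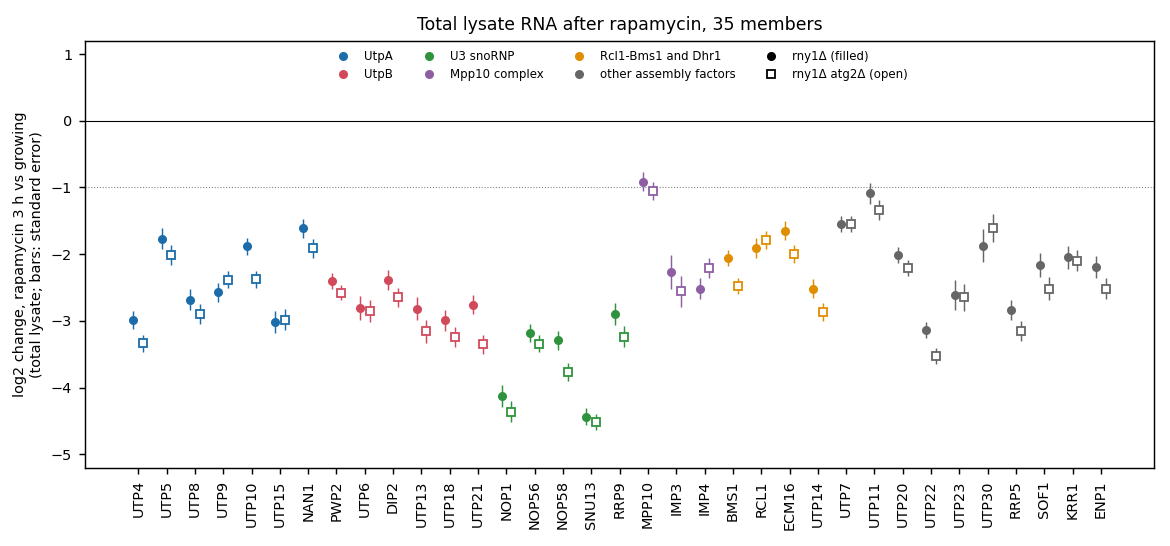
Log2 change of each member in total lysates between growing cells and 3 h of rapamycin, in rny1Δ (filled circles) and rny1Δ atg2Δ (open squares). Bars are standard errors of the edgeR fit, colours are the 6 groups by role and the dotted line marks a 2-fold fall. SNU13 and NOP1 lie lowest in both strains, between -4.13 and -4.52, and MPP10 highest.

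In growing cells the vacuole fraction held the members at nearly the levels of the total lysate. The members' log2 ratio of vacuole to total had a median of -0.02 in rny1Δ, with a range of -0.27 to 0.66, and -0.06 in rny1Δ atg2Δ, with a range of -0.42 to 0.61. Both come from 1 library per fraction and have no replicate check. NOP1 had 175 CPM in lysate RNA of rny1Δ and 276 in its vacuoles, and 187 and 281 in rny1Δ atg2Δ. UTP10 had 610 and 955, and 685 and 1047. These mRNAs were higher in the growing vacuole libraries of both strains.

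After rapamycin the members were, as a set, lower in vacuoles than in total lysates in rny1Δ. The median log2 ratio of vacuole to total was -0.64 in replicate 1 and -0.36 in replicate 2, and for 27 of 35 members both vacuole libraries lay below both total libraries, which held for 39.4% of all genes tested. For 3 members, SNU13, NOP1 and UTP30, both vacuole libraries lay above both total libraries, which held for 44.3% of all genes. In rny1Δ atg2Δ the same medians were 0.39 and 0.27. Both vacuole libraries lay below both total libraries for 6 of 35 members there, against 33.8% of all genes, and above them for 18 of 35, against 29.1%.

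Tested over the 12 libraries, vacuole against total after rapamycin gave 1 member higher in rny1Δ, against 11.2% of all genes, and 3 lower, against 7.11%. SNU13 was higher by 1.48 ± 0.13 (adjusted p = 2.3e-08). ECM16 (-1.29 ± 0.13), RRP5 (-1.08 ± 0.13) and NAN1 (-1.01 ± 0.13) were lower. Without rny1Δ total replicate 1 the counts were 2 higher (NOP1 joined, at 1.14) and 1 lower, and without rny1Δ vacuole replicate 1 there were 5 lower. In rny1Δ atg2Δ, 3 members were higher, against 1.81% of all genes, namely UTP10 (1.40 ± 0.12), NOP1 (1.17 ± 0.18) and UTP20 (1.14 ± 0.11). After a correction for gene length, described further on, these counts were 0 higher and 1 lower in rny1Δ and 1 higher in rny1Δ atg2Δ, IMP3 (-1.03) and NOP1 (1.29) being those called, beside 5.46%, 8.52% and 0.991% of all genes.

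Vacuolar enrichment is the ratio of vacuole to total after rapamycin divided by the same ratio in growing cells, on the log2 scale. In rny1Δ its median over the members was -0.51, beside 0.08 for all genes tested, and 28 of 35 members were below 0. SNU13, at 12.9 and 11.6 CPM in the rapamycin total lysates, had 33.4 and 35.3 in the vacuoles, while its growing libraries held 266 and 241. UTP10 went the other way, with 164 and 167 in the rapamycin lysates and 102 and 94.0 in the vacuoles, against 610 and 955 in growing cells. The 2 rapamycin vacuole libraries lay above both lysates for SNU13, as for 44.3% of all genes tested. For UTP10 they lay below both, as for 39.4%.

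By the test, 1 member was enriched in rny1Δ, against 12.1% of all genes, and 3 were depleted, against 7.98%. SNU13 was enriched by 1.63 ± 0.18 (adjusted p = 3.7e-06). UTP10 was depleted by -1.40 ± 0.19 (adjusted p = 1.7e-05), ECM16 by -1.11 ± 0.21 and NAN1 by -1.04 ± 0.20. UTP20, at -0.93 ± 0.18, missed the fold threshold, as did RRP5 at -0.82 ± 0.21 and PWP2 at -0.75 ± 0.18. The remaining genes followed throughout had -0.52 (RCL1), -0.42 (MPP10), -0.36 (ENP1), -0.16 (UTP22), 0.13 (UTP30) and 0.20 (NOP1), none of them called. Without rny1Δ vacuole replicate 1 there were 5 depleted members. After the length correction SNU13 (0.90) and all 3 depleted members, at -0.78 (UTP10), -0.62 (ECM16) and -0.69 (NAN1), fell short of the fold threshold, while UTP11 (-1.10) was called depleted, beside 5.65% of all genes enriched and 7.8% depleted.

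In rny1Δ atg2Δ the members' median enrichment was 0.30, beside 0.03 for all genes, and 25 of 35 were above 0. RRP5 had 149 and 195 CPM in the rapamycin lysates and 289 and 330 in the vacuoles, against 1528 and 1211 in growing cells. UTP20 had 188 and 214, then 433 and 461. UTP30, the lowest member by enrichment at -0.73 ± 0.35 (adjusted p = 0.175), had 5.81 and 6.99, then 3.45 and 10.7. The last of each set of 4 is the library with 535462 counts, in which 3 counts correspond to 5.60 CPM, so the UTP30 value there rests on few reads.

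The test called 3 members enriched in rny1Δ atg2Δ, against 2.26% of all genes: RRP5 (1.15 ± 0.22, adjusted p = 0.0020), UTP21 (1.05 ± 0.22, adjusted p = 0.0033) and UTP14 (1.02 ± 0.21, adjusted p = 0.0035). None was called depleted. The study reports that gels of vacuole RNA from cells without Atg2 showed hardly any mRNA. Enrichment in this strain is therefore a change in shares of the libraries, not a measure of mRNA delivered to vacuoles. Without the shallow library (rny1Δ atg2Δ vacuole replicate 2) 1 member was called, UTP21, and without vacuole replicate 1 or total replicate 1 of that strain there were 0. Over the libraries left out, the log2 values ran from 0.97 to 1.36 for RRP5, from 1.00 to 1.10 for UTP21 and from 0.91 to 1.64 for UTP14, so the members stayed near or above the fold threshold where the call was lost. After the length correction 0 were called, beside 1.56% of all genes, with RRP5 at 0.90 (adjusted p = 0.0194), UTP21 at 0.94 (0.0101) and UTP14 at 0.92 (0.0104).

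**Figure D3:**
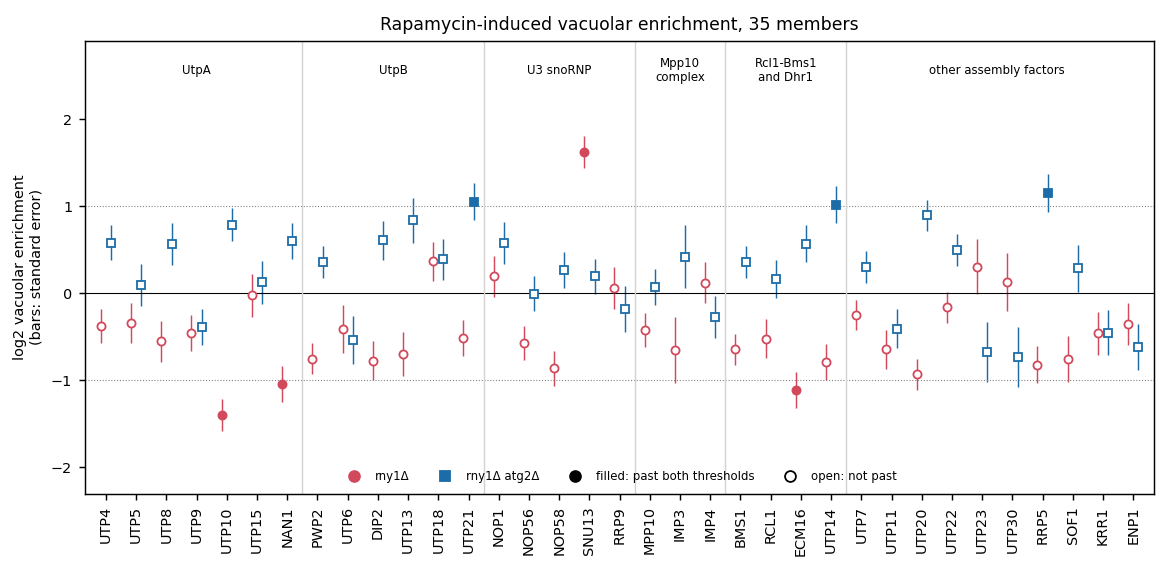
Vacuolar enrichment of each member (log2 of the rapamycin vacuole to total ratio over the growing ratio), in rny1Δ (red circles) and rny1Δ atg2Δ (blue squares), ordered by role. Bars are standard errors, filled symbols passed both thresholds and dotted lines mark 2-fold. SNU13 lies highest in rny1Δ at 1.63 and UTP10 lowest at -1.40, and RRP5, UTP21 and UTP14 are the filled squares above 1.

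The strains differed in the enrichment of 13 members, by a test of the difference itself. In rny1Δ minus rny1Δ atg2Δ, 1 member was higher, against 9.26% of all genes, and 12 were lower, against 8.03%. The members' median was -0.66, beside 0.03 for all genes. SNU13 differed by 1.43 ± 0.27 (adjusted p = 0.0010): its rapamycin vacuole libraries held 33.4 and 35.3 CPM in rny1Δ and 12.3 and 10.7 in rny1Δ atg2Δ, while its lysates held 12.9 and 11.6 against 11.9 and 13.7. The value of 10.7 rests on 5 counts in the shallow library.

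The largest negative difference was that of UTP10, at -2.18 ± 0.27 (adjusted p = 8.4e-05). Its rapamycin vacuole libraries held 102 and 94.0 CPM in rny1Δ and 343 and 356 in rny1Δ atg2Δ. RRP5 differed by -1.97 ± 0.31, with 93.1 and 92.4 against 289 and 330, and UTP20 by -1.82 ± 0.25, with 133 and 133 against 433 and 461. These 3 genes were those with the largest negative differences, and in each the vacuole libraries of the double mutant held the larger shares. The second value of the double mutant is that of the shallow library. How many of all genes showed such a gap was not counted.

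The remaining lower members came from several groups. The difference also went with gene length (Spearman rho -0.76 over the members), and role was not tested apart from length. UTP14 (-1.80) and ECM16 (-1.68), the helicase with its activator, and BMS1 (-1.004) belong to the late remodelling group, of which 3 of 4 were lower. From UtpB, 4 of 6 were lower: UTP21 (-1.56), UTP13 (-1.54), DIP2 (-1.38) and PWP2 (-1.12). NAN1 (-1.64) was the other UtpA member besides UTP10, making 2 of 7, and NOP58 (-1.13) joined SNU13 from the U3 particle. Of the 10 other assembly factors 2 were lower, and of the Mpp10 complex none. Values of NOP1 (-0.38 ± 0.34), MPP10 (-0.49 ± 0.29) and RCL1 (-0.68 ± 0.31) did not pass.

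These counts moved with the library left out and with length. Leaving out rny1Δ atg2Δ vacuole replicate 1 keeps only the shallow library in its group, where UTP14 had 23 counts and SNU13 5. UTP14 then stood at -2.43, RRP5 at -2.10 and SNU13 at 1.63, values at least as large as with both libraries. The shallow library did not hold larger shares throughout: NAN1 had 96.4 CPM there against 128 in replicate 1, and BMS1 36.4 against 42.7. Without the shallow library instead, 11 were lower and 1 higher, and the median was -0.67. After the length correction 2 were lower and 0 higher, beside 3.74% and 2.35% of all genes, with UTP10 at -1.30 (adjusted p = 0.0062) and SNU13 at 0.74 (adjusted p = 0.062).

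**Figure D4:**
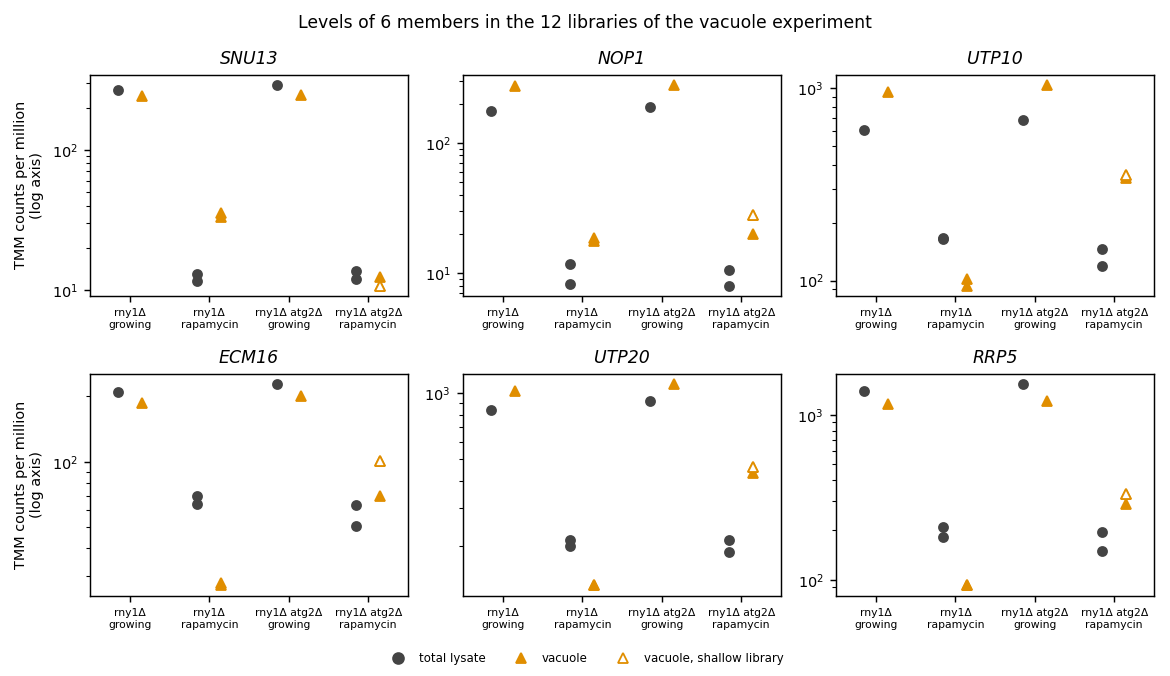
Level (TMM-scaled CPM, log axis) of SNU13, NOP1, UTP10, ECM16, UTP20 and RRP5 in each of the 12 libraries of the vacuole experiment. Circles are total lysates, triangles vacuoles, and the open triangle is the library with 535462 counts. After rapamycin SNU13 is higher in vacuoles (33.4 and 35.3) than in lysates in rny1Δ and overlaps in rny1Δ atg2Δ, while UTP10, UTP20 and RRP5 are lower in vacuoles in rny1Δ and higher in rny1Δ atg2Δ.

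Enrichment went with gene length among the members, in opposite directions in the strains. The members' annotated lengths run from 381 bases (SNU13) to 7482 (UTP20), with a median of 1728 against 1203 for all protein-coding genes. In rny1Δ the Spearman rho of enrichment with length was -0.56 over the 35 members and -0.47 over the 5753 genes tested. In rny1Δ atg2Δ it was 0.72 over the members and 0.14 over all genes, and for the strain difference -0.76 and -0.52. These describe genes within the same 12 libraries and carry no test.

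A correction that removed the trend of counts with length in each library, fitted over all genes, left rhos of 0.11 (rny1Δ), 0.63 (rny1Δ atg2Δ) and -0.40 (strain difference) among the members, and -0.04, 0.04 and -0.07 over all genes. The members' median enrichment after it was -0.32 in rny1Δ. The fall in total lysates showed little relation to length, with rhos of 0.08 and -0.05 among the members, while the strain difference in those lysates had -0.58 among the members and -0.05 over all genes. Ribosome association did show one: its rho with length among the members was -0.55, -0.67 and -0.65 at 1, 2 and 3 h, and -0.41, -0.36 and -0.51 over all genes. The part of length in the enrichment of single members was not tested beyond the correction.

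**Figure D5:**
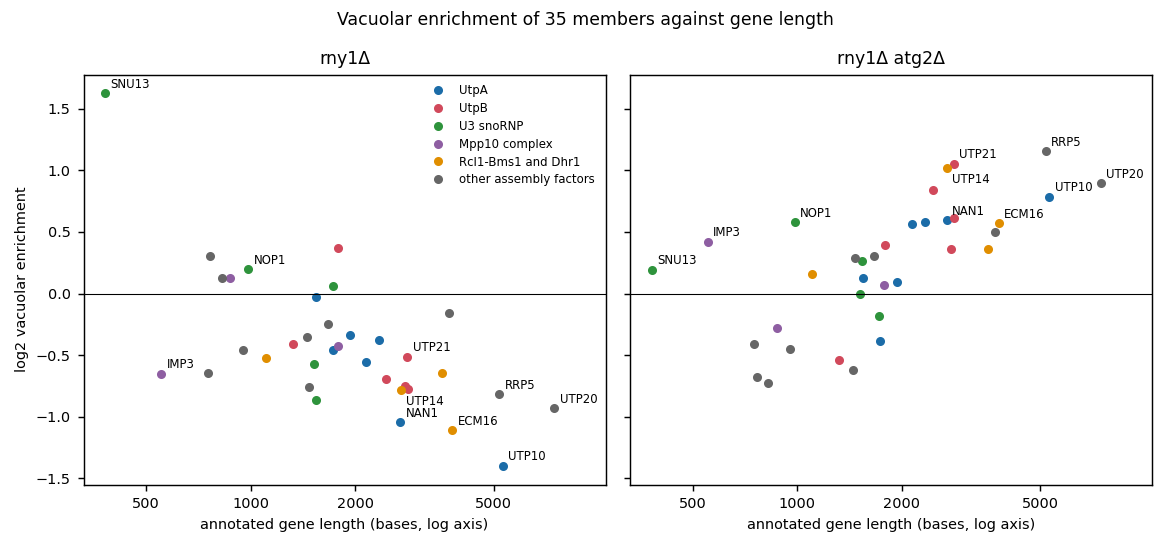
Vacuolar enrichment (log2) of the 35 members against annotated gene length in bases (log axis), in rny1Δ (left) and rny1Δ atg2Δ (right), coloured by role. SNU13, the shortest member at 381 bases, lies highest on the left at 1.63, and the longest members, UTP20, UTP10 and RRP5, lie below 0 on the left and between 0.78 and 1.15 on the right.

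Other genes of ribosome assembly, taken from lists of known factors, give the setting of these values. In rny1Δ, 39 other small subunit assembly factors had a median vacuolar enrichment of -0.41, with 0 called enriched and 5 depleted, and 56 large subunit assembly factors had -0.53, with 1 and 6. The small subunit ribosomal proteins are part of the finished particle and are encoded by short mRNAs. Their genes had a median of 0.96 over 55 genes, with 26 enriched and 0 depleted. For the strain difference the medians were -0.58 (0 higher and 6 lower), -0.74 (0 and 13) and 1.05 (26 and 0), beside -0.66 for the members (1 and 12).

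In WT cells at 1 h these lists fell by medians of -3.21, -4.01 and -4.87, all genes of each list being called lower, beside -3.69 for the members. Between 1 h and 3 h they rose by medians of 1.77 (35 of 39 called), 2.18 (53 of 56) and 1.18 (32 of 56), beside 1.96 for the members (34 of 35). In rny1Δ lysates the medians were -1.88 (35 of 39 lower), -2.12 (55 of 56) and -4.08 (55 of 55), beside -2.52 (34 of 35).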

How the data were processed

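Gene-level counts deposited by the authors were used as given: ribosomal RNA reads were set aside with Bowtie2 2.1.0 (STAR 2.7.0a is also named, for this and for other non-coding RNA), the rest was aligned to sacCer3 with TopHat2 2.0.9 or STAR 2.7.0a, and HTSeq 0.6.1 or the authors' own scripts counted reads per gene. Rows naming no gene (62.6% to 79.5% of counts in the vacuole experiment) were left out, and a length column of the WT files, in codons and somewhat shorter than the annotated coding length, served only for per-codon levels. A protein-coding gene entered a fit when its libraries together held 10 or more of its counts, and genes were tested with edgeR 4.0.16 in R 4.3.3 (TMM, quasi-likelihood, Benjamini-Hochberg) in 4 fits: vacuole experiment (5753 genes, 12 libraries, 4 residual degrees of freedom), WT RNA-Seq (5927, 1), WT footprints (5625, 1) and both WT assays (5936, 2). A call is a log2 change of at least 1 with an adjusted p under 0.01. Standard errors are those of the fit. Alternatives were size factors, DESeq2 1.42.0, other filters, leaving out each replicate, a replicate block and a length correction (lowess with a span of 0.5). Scripts were tested on simulated data.

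The members and lists were chosen with earlier results of these data known. Levels by library are given for 1 member of each group by role, for SNU13, RRP5, ENP1, UTP22 and UTP30, and for the highest and lowest member of a comparison, and other members by their values, ranges or counts. WT RNA-Seq and footprints of 1 lysate are paired by the study's methods (correlation of the replicate deviations 0.11). In the vacuole experiment fractions share a number only. A planned search of promoter letters was not run, and no sequences are given. Gene names and positions are from RefSeq for R64. With 3 counts as the floor, a library could not show levels under 0.136 to 1.13 CPM, or 5.60 in the shallow one, counting error only.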

Additional observations from a re-analysis of the deposited data

Results flagged for a closer look

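The vacuolar enrichment of 13 members differed between the strains by a test of the difference itself (rny1Δ minus rny1Δ atg2Δ on the log2 scale, edgeR quasi-likelihood test, adjusted over all genes). SNU13 was higher in rny1Δ, at 1.43. The members lower in rny1Δ were UTP10 (-2.18), RRP5 (-1.97), UTP20 (-1.82), UTP14 (-1.80), ECM16 (-1.68), NAN1 (-1.64), UTP21 (-1.56), UTP13 (-1.54), DIP2 (-1.38), NOP58 (-1.13), PWP2 (-1.12) and BMS1 (-1.004). Of all genes tested, 9.26% were higher and 8.03% lower. The difference had a Spearman rho with gene length of -0.76 over the members and -0.52 over all genes. After the length correction only UTP10 (-1.30) and UTP14 (-1.35) were still called, and SNU13 stood at 0.74. Mitochondrially encoded genes took 0.307% and 0.369% of counts in the rapamycin vacuoles of rny1Δ and 0.877% and 1.28% in those of rny1Δ atg2Δ. Their part in these differences was not tested. All these values are shares of a library, not amounts delivered to vacuoles.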

How the results depend on the processing

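Of 352 counts of called members under the alternatives, 313 stayed within 1.5 times the main count, and no called direction turned. The 313 include counts of 0 that stayed at 0, so they do not measure how steady the other counts were. Requiring at least 10 counts in every library left 21 members in the vacuole experiment. SNU13, with 5 counts in the shallow library, was removed, so its calls were not retested there. The counts were 0 enriched and 1 depleted in rny1Δ, beside 11.6% and 7.23% of all genes. For the strain difference 0 were higher, beside 10.8%. For vacuole against total in rny1Δ there were 0 higher and 1 lower, beside 10% and 6.86%. In the lysates 21 were lower in each strain, beside 23.5% (rny1Δ) and 24.7% (rny1Δ atg2Δ). In WT footprints that filter gave 33 members lower at 2 h and 4 at 3 h, beside 7.52% and 2.16% of all genes. No filter gave 30 and 2, beside 6.28% and 0.995%, and DESeq2 24 and 10, beside 5.46% and 3.52%. The length correction left 0 enriched and 1 depleted in rny1Δ, 0 enriched in rny1Δ atg2Δ, 0 higher and 2 lower for the strain difference, and for vacuole against total 0 higher and 1 lower in rny1Δ and 1 higher in rny1Δ atg2Δ. With RNA-Seq and footprints in 1 fit, 4 mRNAs were lower at 2 h, 0 at 3 h, and 0 higher at 3 h than at 1 h. Leaving out 1 replicate gave 2 to 5 depleted in rny1Δ, 0 to 3 enriched in rny1Δ atg2Δ, 0 to 1 higher and 5 to 13 lower for the strain difference, and 1 to 2 higher and 1 to 5 lower for vacuole against total in rny1Δ. For ribosome association it gave 0 to 1 higher and 0 to 9 lower at 1 h, 0 to 5 lower at 2 h, and 0 to 1 higher and 0 to 8 lower at 3 h. Without 1 growing footprint library, however, the spread comes from the 2 growing RNA-Seq libraries alone (coefficient of variation 0.0705, against 0.323 in footprints), and 154 to 370 of all genes are then called lower, so these counts say nothing about the members. In the vacuole experiment the shares of all genes called also moved with the replicate left out. Apart from the removal of SNU13 by the filter, the cause of the other changes was not tested. Vacuole and total libraries share replicate numbers but no stated pairing (correlation of their deviations 0.19 in rny1Δ and 0.05 in rny1Δ atg2Δ). With a replicate block 4 members were enriched in rny1Δ atg2Δ, beside 2.45% of all genes, and 15 lower for the strain difference, beside 9.82%. The other counts of called members were as without the block, ribosome association at 0 included. The depth of 535462 counts in 1 vacuole library limits the low members there.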
